A study of Rattus norvegicus with 27 samples.

Results

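Calcium that enters the cytosol of a neuron is returned to the endoplasmic reticulum, the internal calcium store, or is pushed out of the cell, and the genes described here encode the machinery of that traffic. The set was all probe sets with 1 gene symbol in the platform annotation for Stim1, Stim2, Orai1 to Orai3, Itpr1 to Itpr3, Ryr1 to Ryr3 and every gene whose symbol starts with Atp2a or Atp2b. It came to 20 probe sets of 13 genes, out of 12913 probe sets tested. Orai2, Itpr2, Ryr3, Atp2a1 and Atp2b2 were not analysed here. STIM proteins sense a falling calcium level inside the store and open ORAI channels of the plasma membrane, a route called store-operated calcium entry. IP3 receptors (Itpr) and ryanodine receptors (Ryr) release calcium from the store. SERCA pumps (Atp2a) refill it, and plasma membrane calcium pumps (Atp2b) expel calcium from the cell. In motor neurons, which fire in long trains and hold little soluble calcium buffer, these routes are known to shape excitability and vulnerability.

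The arrays measured RNA from motor neurons of the tail in adult male Wistar rats. Spi-21 (8 arrays) and Spi-60 (8 arrays) came from rats whose spinal cord had been cut at S2, with a short piece removed, 21 or 60 days earlier. ShamC-21 (6 arrays) and ShamC-60 (5 arrays) came from rats in which the vertebrae had been opened and the dura left whole, collected on the same days. All animals, shams included, had received the retrograde tracer Fluorogold in muscle and peritoneum 5 to 7 days before collection, and buprenorphine after surgery. Each array held RNA of pooled, laser-dissected cells, amplified in 2 rounds. The design text gives 50 to 200 cells per sample and the sample labels 100 to 200. The labels number the samples as biological replicates without tying them to animals or batches, so each p-value reflects only how far these samples scatter, which may be technical. A lower signal in pooled cells can mean fewer cells of a type or less RNA per cell, which cannot be told apart here.

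Several motor neuron markers were strong: Nefh averaged 14.3 and Prph 13.0 on the log2 scale against a table median of 6.35. Isl1 (6.09), Isl2 (5.91), Chrna4 (5.63) and Mmp9 (5.43) were below that median. Glial markers were present too, with an astrocyte list mean of 7.77 to 9.69 over all arrays. ShamC-60 replicate 4 stood apart, with a motor neuron list mean of 8.63 against 9.95 to 10.2 in the other ShamC-60 arrays. ShamC-60 replicate 1 had the highest oligodendrocyte mean of its group, 8.59. In Spi-21, the GAPDH control difference between its 3' and 5' probe sets, used as a sign of RNA quality, lay between 2.57 and 3.47 for replicates 1 to 4, but between 0.985 and 1.46 for replicates 5 to 8. At 21 days the same difference averaged 2.13 in transected and 2.97 in sham arrays (two-sided exact permutation test, adjusted p = 0.136 over 18 tests). At 60 days it averaged 3.38 in transected and 2.57 in sham arrays (same test, adjusted p = 0.0187). The corresponding beta-actin difference was higher after transection on both days, 3.21 against 2.28 and 3.27 against 2.22 (same test, adjusted p = 0.00599 and 0.00699). A list of 3 muscle markers was lower after transection at 21 days, 5.80 against 6.02 (exact permutation, adjusted p = 0.0285), and no marker list of another cell type passed at either day. Beta-actin moved with every comparison of operations below, and its part in the results was not tested. For the calcium handling set, the main results that rest on these arrays are given with and without them. For the other calcium lists, the calls lost without them are named at the end of that account.

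All values below are log2 RMA signals, and differences are transected minus sham with the standard error of the limma fit. A probe set passed at an adjusted p under 0.05 (Benjamini-Hochberg over all probe sets). Of the 20 calcium handling probe sets, 2 rose and 2 fell at 21 days, beside 22.6% of all probe sets that passed in either direction (11.3% higher, 11.2% lower). At 60 days 3 rose and 0 fell, beside 19.1% of all (10.2% higher, 8.92% lower), and 6 of the 20 had an unadjusted p under 0.05, as had 4341 of all 12913. For the mean of both days 3 rose and 1 fell, beside 39.4% (20.4% higher, 19% lower). These shares (20%, 15% and 20%) were near or below those of all probe sets, so the set as a whole did not stand out. The median difference was 0.01 at 21 days and 0.12 at 60 days, against 0.01 and 0.02 over all probe sets. With each gene represented by its brightest probe set, 0 of 13 genes passed in limma at 21 days (22.6% of all genes did; the smallest unadjusted p was 0.0772, for Orai1) and 2 passed at 60 days (20.1% of all), Stim1 and Orai1. What follows is therefore an account of single genes.

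**Figure D1:**
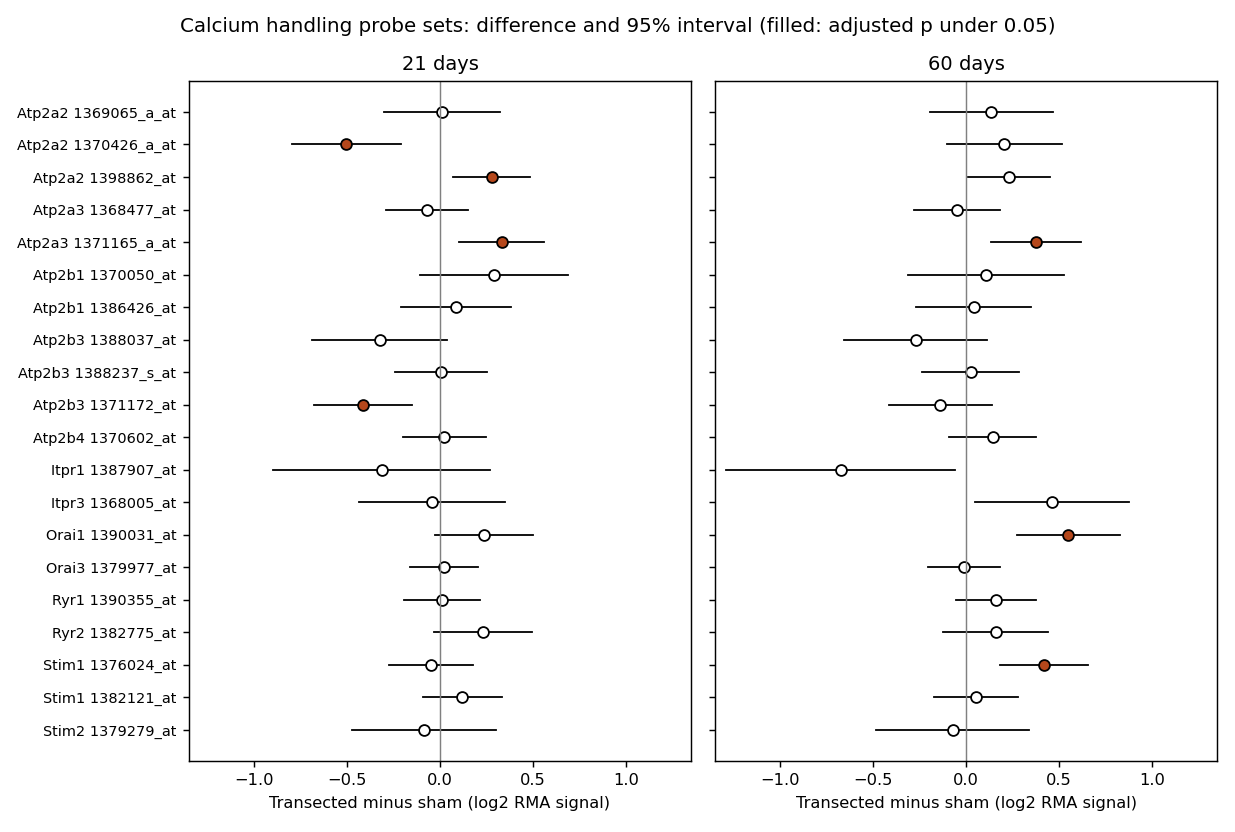
Transected minus sham difference in log2 RMA signal (x axis) with its 95% interval from the limma fit for each of the 20 probe sets (y axis), at 21 days (left) and 60 days (right). Filled points passed an adjusted p of 0.05: at 60 days these are Atp2a3 1371165_a_at, Orai1 and Stim1 1376024_at, all above 0, while at 21 days Atp2a2 has filled points on both sides of 0.

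Stim1 encodes the calcium sensor of the store membrane and had 2 probe sets. In the brighter one (1376024_at), ShamC-60 arrays read 8.62, 8.46, 8.77, 8.74 and 8.56, and Spi-60 arrays ran from 8.57 through a median of 9.11 to 9.31. Of the 8 Spi-60 arrays 7 lay above every sham array of that day, and replicate 5 was the exception. Stim1 rose at 60 days by 0.42 ± 0.116 (1.34-fold, limma adjusted p = 0.0127). At 21 days ShamC-21 spanned 8.44 to 8.83 (median 8.55) and Spi-21 8.26 to 8.87 (median 8.48), ranges that overlapped throughout. The 21-day difference was −0.05 ± 0.11 (limma adjusted p = 0.78, 95% interval −0.27 to 0.18).

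The Stim1 call at 60 days held without any single array (0.38 to 0.49, limma adjusted p up to 0.0381). Without ShamC-60 replicates 1 and 4 the difference was 0.45 and did not pass (limma adjusted p = 0.0574). With the GAPDH control difference as a covariate it was 0.36 (limma adjusted p = 0.0936). That control itself differed between the groups at 60 days, and its part in the Stim1 result was not tested. The dimmer Stim1 probe set (1382121_at, group means 5.80 to 5.92, below the table median) differed by 0.12 at 21 days and 0.05 at 60 days, without a call (limma adjusted p = 0.424 and 0.768). Across the 27 arrays, with group means removed, the signals of the 2 Stim1 probe sets correlated at r = 0.0621, a description over arrays that share processing.

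In the main fit the brighter Stim1 probe set was also among the few that passed between the transected groups. The Spi-60 mean was 9.05 ± 0.255 (SD, n = 8) and the Spi-21 mean 8.54 ± 0.196 (SD, n = 8), and 6 of the 8 Spi-60 arrays lay above every Spi-21 array. The 60-day minus 21-day difference was 0.51 ± 0.102 (limma adjusted p = 0.0436), 1 of 11 probe sets to pass among 12913 (0.0852%, with 0.0465% higher and 0.0387% lower). In sham arrays the same difference was 0.04 ± 0.123 (limma adjusted p = 0.999). This call was fragile: it was lost without any of 22 single arrays (0.47 to 0.58, limma adjusted p up to 0.103). It was also lost in 6 of 10 other settings, with differences from 0.36 to 0.53 there. Among these settings was the fit without Spi-21 replicates 5 to 8. Those arrays averaged 8.40, against 8.69 in Spi-21 replicates 1 to 4. Of all probe sets, 1706 had an unadjusted p under 0.05 for 60 minus 21 days in transected arrays. Those that passed, 11 in the main fit, numbered 2 to 630 over the 10 other settings. They numbered 92 with the GAPDH covariate and 630 with Spi-21 replicates 1 to 4 left out, so how few passed depended on the fit. The Stim1 effect of transection was not shown to differ between days (60-day effect minus 21-day effect 0.47 ± 0.16, limma adjusted p = 0.627, where 0 of 12913 probe sets passed and 905 had an unadjusted p under 0.05).

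Stim2, the second store sensor, did not pass. Its signal ran from 8.70 to 10.2 in Spi-60 and from 8.93 to 9.97 in ShamC-60, and the difference was −0.07 ± 0.2 (limma adjusted p = 0.828, 95% interval −0.48 to 0.34). At 21 days it was −0.08 ± 0.189 (limma adjusted p = 0.782). The Stim2 arrays scattered least in ShamC-21 (9.48 to 9.68) and more in the other groups (8.98 to 10.1 in Spi-21).

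Orai1 encodes the pore of the store-operated channel and gave the clearest separation of the set. The ShamC-60 arrays read 6.15, 6.46, 6.42, 6.08 and 6.52, and the Spi-60 arrays 6.58 to 7.11 with a median of 6.89. All 8 transected arrays lay above every sham array, the only member for which the groups did not overlap at 60 days (1 of 20), while 4.78% of all probe sets were separated in this direction. At 21 days no member was separated, beside 5.3% of all probe sets. Orai1 rose by 0.55 ± 0.135 (1.46-fold, limma adjusted p = 0.00591). It also passed for the mean of both days, 0.39 ± 0.0933 (limma adjusted p = 0.00173), in each of 10 other settings and without each single array (0.35 to 0.42, limma adjusted p up to 0.00492). The signal of Orai1 was close to the table median, so its fold is measured on a dim probe set.

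At 21 days Orai1 did not pass (0.24 ± 0.128, limma adjusted p = 0.185), and the transected arrays fell into separate ranges. Spi-21 replicates 1 to 4 read 6.66 to 7.20 and replicates 5 to 8 read 6.33 to 6.48, beside 6.27 to 6.69 in ShamC-21. The same division was seen in the GAPDH control difference given above. With replicates 5 to 8 left out the 21-day difference was 0.52 (limma adjusted p = 0.00335), and with the GAPDH control as a covariate it was 0.48 (limma adjusted p = 0.00249). At 60 days the covariate lowered the difference to 0.31 (limma adjusted p = 0.105), and without ShamC-60 replicates 1 and 4 it was 0.41 (limma adjusted p = 0.127). In this set Itpr3 and Stim1 1376024_at also had non-overlapping ranges between Spi-21 replicates 1 to 4 and 5 to 8, so 3 of 20 probe sets did, beside 9.76% of all probe sets. The part of RNA quality in these differences was not tested.

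**Figure D2:**
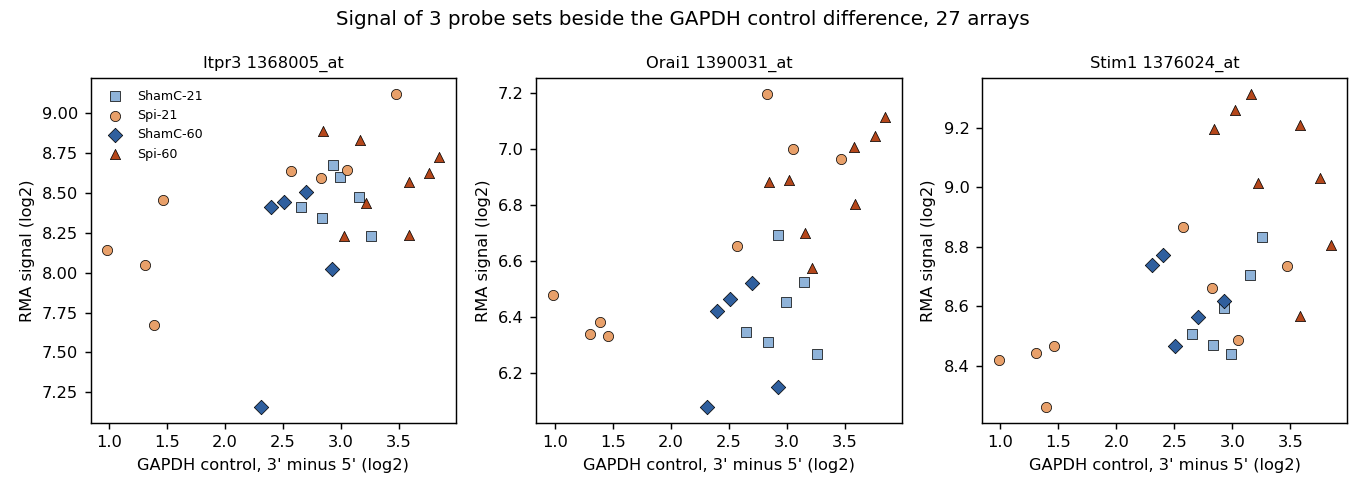
Log2 RMA signal of Itpr3, Orai1 and Stim1 1376024_at (y axes, left to right) against the 3' minus 5' difference of the GAPDH control (x axis, log2) in the 27 arrays, with a symbol for each group. The 4 Spi-21 arrays at the left, with GAPDH values of 0.985 to 1.46, read at most 8.46 for Itpr3, 6.48 for Orai1 and 8.47 for Stim1, below the other 4 Spi-21 arrays in each panel.

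For Orai1 the stretch of genome just before its transcription start is shown, since Orai1 was the only member whose groups did not overlap at 60 days. It is RefSeq sequence of build GRCr8, chr12:39209031-39209280, minus strand, 5′ to 3′, ending at the base before the start. Capitals mark GGGCGG or its reverse complement, the GC box letters bound by Sp family factors.

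Orai1: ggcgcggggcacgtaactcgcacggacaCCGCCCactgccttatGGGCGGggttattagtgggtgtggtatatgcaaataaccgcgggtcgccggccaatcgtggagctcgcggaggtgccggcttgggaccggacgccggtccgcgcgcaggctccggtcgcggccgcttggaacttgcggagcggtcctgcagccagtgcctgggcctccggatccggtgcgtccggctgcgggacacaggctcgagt

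The window held GGGCGG 2 times, counting both strands, and CCAAT 1 time. Windows of the same 250 bases were found for 12 of the 13 genes. GGGCGG was in 9 of these 12, beside 30.5% of 33465 rat promoter windows, and CCAAT was in 7, beside 34.0%. Neither TATAAA nor TGACGTCA was in any of the 12 (12.9% and 1.6% of all windows), and GGAAA, the core letters read by NFAT factors, was in 3 (56.9% of all). For 7 of the 12 genes, Stim1 and Atp2a3 among them, the window overlapped the RefSeq record of the gene itself and so can include transcribed bases. Of the 5 windows that did not, GGGCGG was in 4 and CCAAT in 4. The 12 windows ranged from 46.4% (Atp2b4) to 80.0% (Atp2a2) G or C, with 69.6% for Orai1, beside a median of 51.2% over all windows. The part of base composition in these shares was not tested. A match says only that the letters occur in these windows. Orai3, the other measured ORAI channel, had group means of 6.08 to 6.27 and did not pass at either day (0.02 ± 0.0891 and −0.01 ± 0.0941, limma adjusted p = 0.872 and 0.944).

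**Figure D3:**
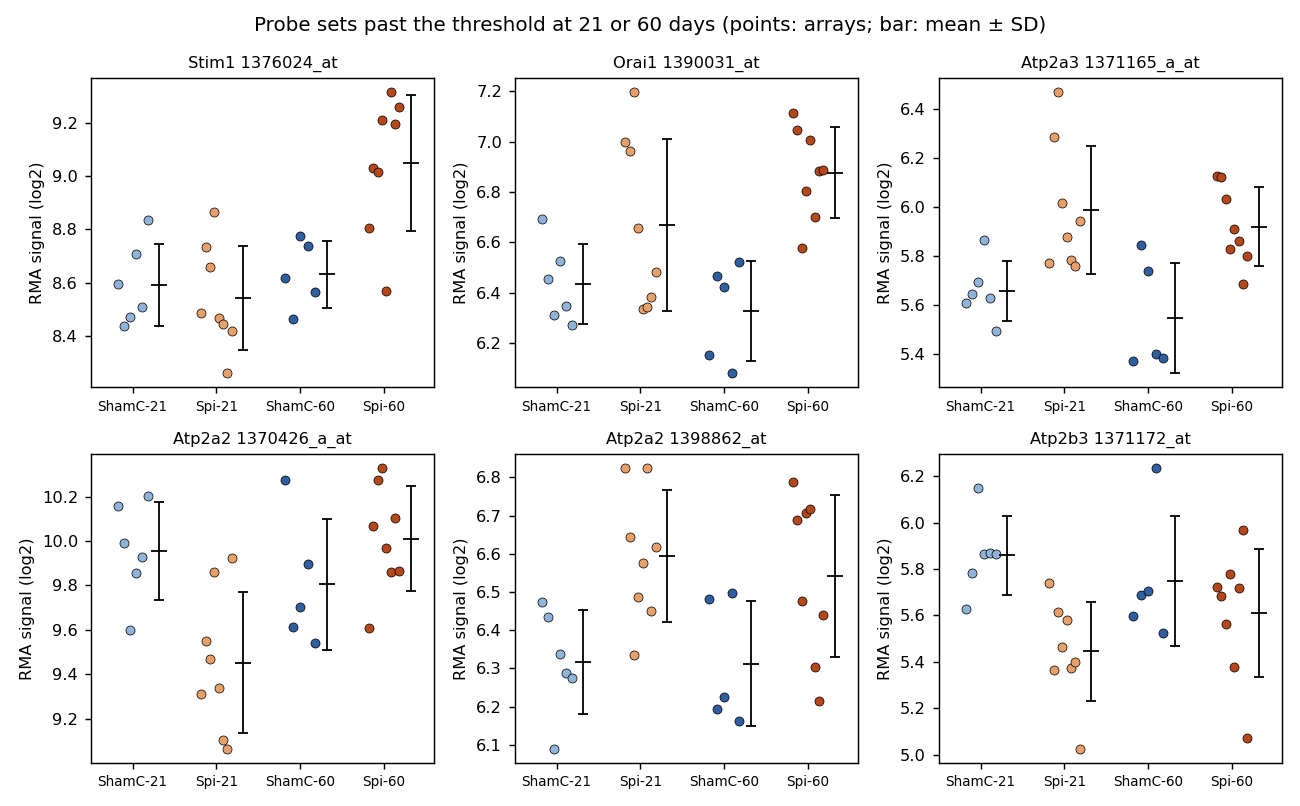
Log2 RMA signal (y axis) of the 6 probe sets that passed at 21 or 60 days, in each array of the 4 groups (points), with mean ± SD beside the points. All Spi-60 arrays lie above the ShamC-60 arrays for Orai1, and 7 of 8 do for Stim1 1376024_at. The 2 Atp2a2 probe sets move in opposite directions at 21 days.

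The release channels gave no call. Itpr1, the main IP3 receptor of neurons, was lower than the sham mean in all 8 transected arrays at each day, by 0.31 ± 0.284 at 21 days and 0.67 ± 0.3 at 60 days in the fit (limma adjusted p = 0.447 and 0.113). The 60-day value rested on ShamC-60 replicate 4. That array read 10.7, the other ShamC-60 arrays 8.63, 7.55, 8.12 and 7.54, and Spi-60 spanned 7.67 to 8.03. Without replicate 4 the difference was −0.12 (limma adjusted p = 0.637), and without replicates 1 and 4 it was 0.10 (limma adjusted p = 0.712). Without ShamC-60 replicate 2 or 5, which were low, it passed, and was largest without replicate 5 (−0.92, limma adjusted p = 0.0311).

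At 21 days the Itpr1 arrays were more even. ShamC-21 spanned 7.75 to 8.10 and Spi-21 7.24 to 7.91, with 6 of 8 transected arrays below every sham array. The shared spread of the fit contains the outlying 60-day sham arrays. With ShamC-60 replicates 1 and 4 left out, the 21-day difference was again −0.31 and passed (limma adjusted p = 0.0292), so that this call depended on arrays of another group. Itpr1 did not pass in the fit with only the 21-day arrays, which holds none of the 60-day arrays.

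Itpr3, an IP3 receptor isoform, went the other way in ShamC-60 replicate 4, where it read 7.16 against 8.02 to 8.51 in the rest of the group. Its 60-day difference was 0.46 ± 0.203 (limma adjusted p = 0.109), and all 8 Spi-60 arrays, at 8.23 to 8.89, lay above the sham mean. Without replicate 4 it was 0.22 (limma adjusted p = 0.453). With the replicate number as a block it was 0.58 and passed (limma adjusted p = 0.0414), though whether the numbers pair the arrays is not known. The 21-day difference was −0.04 ± 0.192 (limma adjusted p = 0.899).

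The ryanodine receptor genes had dim probe sets. Ryr1, best known from skeletal muscle, had group means of 5.68 to 5.84 and differences of 0.01 and 0.16 at 21 and 60 days (limma adjusted p = 0.952 and 0.293). Ryr2, the isoform of heart and brain, had group means of 5.99 to 6.23 and differences of 0.23 and 0.16 (limma adjusted p = 0.198 and 0.439). In Ryr2 6 of 8 Spi-60 arrays lay above every ShamC-60 array. With Spi-21 replicates 5 to 8 left out Ryr2 passed at 21 days (0.39, limma adjusted p = 0.0458), the same subset in which Orai1 did.

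Atp2a2 encodes SERCA2, the main pump that refills the neuronal store, and its 3 probe sets disagreed at 21 days. The brightest (1369065_a_at) did not differ by more than its error, with signals at the 98.4 percentile of the table and a 21-day difference of 0.01 ± 0.153 (limma adjusted p = 0.967, 95% interval −0.30 to 0.32). The second (1370426_a_at) spanned 9.60 to 10.2 in ShamC-21 and 9.06 to 9.92 in Spi-21. It fell by 0.50 ± 0.142 (limma adjusted p = 0.0131), with 6 of 8 transected arrays below every sham array. The third (1398862_at) spanned 6.09 to 6.47 in ShamC-21 and 6.33 to 6.82 in Spi-21, and rose by 0.28 ± 0.101 (limma adjusted p = 0.0465).

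The fall of 1370426_a_at kept its call without each single array (−0.57 to −0.45, limma adjusted p up to 0.0375) and in each of 11 other settings. At 60 days this probe set stood at 9.80 ± 0.294 (SD, n = 5) in sham and 10.0 ± 0.236 (SD, n = 8) in transected arrays, a difference of 0.21 (limma adjusted p = 0.351). The effect at 60 days minus that at 21 days was 0.71 ± 0.207, which did not pass (limma adjusted p = 0.627). Its Spi-60 signal exceeded that of Spi-21 by 0.56 ± 0.132 (limma adjusted p = 0.0808), with 5 of 8 Spi-60 arrays above every Spi-21 array. It passed without Spi-21 replicate 4 (0.62, limma adjusted p = 0.0343).

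The rise of 1398862_at was weak at 21 days, where 13 single arrays could end it (0.23 to 0.32, limma adjusted p up to 0.108), and it was also lost with only the arrays of that day (limma adjusted p = 0.0577), with the glial covariate (0.25, limma adjusted p = 0.0892) and with Spi-21 replicates 5 to 8 (0.26, limma adjusted p = 0.116) or 1 to 4 (0.30, limma adjusted p = 0.101) left out. It was firmer for the mean of both days (0.25 ± 0.0733, limma adjusted p = 0.00762), where no single array ended the call (limma adjusted p up to 0.0165). At 60 days all 3 Atp2a2 probe sets had positive differences that did not pass (0.14 for 1369065_a_at, 0.21 for 1370426_a_at and 0.23 for 1398862_at, limma adjusted p = 0.59, 0.351 and 0.128). With array weights, which give less weight to arrays that scatter more, all 3 passed (0.37, 0.36 and 0.29, limma adjusted p = 0.0318, 0.0375 and 0.0171). All 60-day calls numbered 2969 with these weights, against 2463 in the main fit.

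SERCA2 transcripts are known to have alternative 3' ends, and the suffix _a_at marks probes shared by several transcripts of a gene. Which transcripts each probe set reads was not analysed here. No direction is given for the gene as a whole at 21 days.

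Atp2a3 encodes SERCA3 and had 2 dim probe sets, which also disagreed. In 1371165_a_at the ShamC-60 arrays read 5.37, 5.84, 5.74, 5.40 and 5.38 and Spi-60 arrays 5.68 to 6.13. At 21 days ShamC-21 spanned 5.49 to 5.87 and Spi-21 5.76 to 6.47. On each day 5 of 8 transected arrays lay above every sham array. This probe set rose by 0.33 ± 0.112 at 21 days (limma adjusted p = 0.0322) and by 0.37 ± 0.118 at 60 days (limma adjusted p = 0.0262).

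Single arrays could end these Atp2a3 calls (6 at 21 days with 0.26 to 0.38 and limma adjusted p up to 0.0772, and 5 at 60 days with 0.33 to 0.45 and limma adjusted p up to 0.0854). Without ShamC-60 replicates 1 and 4 the 60-day difference was 0.27 (limma adjusted p = 0.285), and array weights or the GAPDH covariate also ended that call (0.24 in each, limma adjusted p = 0.0767 and 0.233). With Spi-21 replicates 1 to 4 left out the 21-day difference was 0.18 (limma adjusted p = 0.283). The mean of both days, 0.35 ± 0.0811 (limma adjusted p = 0.00126), held in each of 9 other settings and without each single array (limma adjusted p up to 0.00381). The other Atp2a3 probe set (1368477_at) differed by −0.07 and −0.05 (limma adjusted p = 0.676 and 0.793).

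Among plasma membrane calcium pumps, Atp2b3, a pump isoform of neurons, fell at 21 days in the dimmest of its 3 probe sets. In 1371172_at ShamC-21 spanned 5.63 to 6.15 and Spi-21 5.03 to 5.74, with 7 of 8 transected arrays below every sham array. The difference was −0.41 ± 0.128 (limma adjusted p = 0.0215). It lost its call without ShamC-21 replicate 3 (limma adjusted p = 0.0537), with the GAPDH covariate (−0.35, limma adjusted p = 0.0689) and with Spi-21 replicates 5 to 8 left out (−0.31, limma adjusted p = 0.115). At 60 days it was −0.14 ± 0.135 (limma adjusted p = 0.496), and −0.03 without ShamC-60 replicates 1 and 4. The mean of both days fell by 0.28 ± 0.0931 (limma adjusted p = 0.0199), a call lost without ShamC-60 replicate 4 (−0.22, limma adjusted p = 0.0572) or with Spi-21 replicates 5 to 8 left out (−0.23, limma adjusted p = 0.069).

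The brightest Atp2b3 probe set (1388037_at) had differences of the same sign, −0.32 ± 0.177 at 21 days and −0.27 ± 0.187 at 60 days (limma adjusted p = 0.186 and 0.317). Spi-21 spanned 9.32 to 10.4 there and ShamC-21 9.80 to 10.6. The third (1388237_s_at), whose suffix marks probes that can match more than 1 gene, differed by 0.00 and 0.03 (limma adjusted p = 0.982 and 0.909). Atp2b1, the most widely expressed pump of this family, did not pass in either probe set, with 0.29 ± 0.193 and 0.09 ± 0.143 at 21 days and 0.11 and 0.04 at 60 days (limma adjusted p = 0.284, 0.697, 0.753 and 0.879). Atp2b4 had group means of 5.59 to 5.73 and differences of 0.02 and 0.14 (limma adjusted p = 0.902 and 0.4).

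By likeness of pattern, the genes whose signals most resembled Stim1 1376024_at over the 27 arrays, after removal of group means, were Nono (r = 0.819), Nbeal2 (r = 0.809), Trim37 (r = 0.717), Cytip (r = 0.699) and Scrib (r = 0.688). The highest r of another member was 0.396, for Atp2b1 1386426_at. Orai1, its channel partner, had r = 0.0317 and Stim2 r = 0.12, and the lowest was Atp2b1 1370050_at with r = −0.662. These are descriptions over arrays that share amplification and normalization.

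Around this set lie other genes of calcium handling, in 7 lists with 64 measured genes. Of these, 9 rose and 6 fell at 21 days, 23.4% beside 22.6% of all 9769 genes by their brightest probe set. At 60 days 6 rose and 5 fell, 17.2% beside 20.1%. The share of calls in these lists was near that of all genes, while that of the set itself was near or below the share of all.

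Within the endoplasmic reticulum list (10 genes) Canx, the chaperone calnexin, rose at 21 days by 0.48 ± 0.1 (from 5.95 to 6.43, limma adjusted p = 0.00153). Rcn2, a calcium-binding protein of the secretory pathway, fell by 0.95 ± 0.231 on that day (limma adjusted p = 0.00477). At 60 days Rcn1, its relative, fell by 1.47 ± 0.325 (from 9.22 to 7.75, limma adjusted p = 0.00249), and Rcn2 by 0.71 ± 0.243 (limma adjusted p = 0.0388), which 5 single arrays could end (adjusted p up to 0.175). The store buffer Calr differed by −0.02 and −0.01 (limma adjusted p = 0.904 and 0.974).

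Among 12 partners of the channels, Saraf, which is known to restrain STIM1 after store refilling, fell at 21 days by 0.57 ± 0.195 (limma adjusted p = 0.0356). Leaving out any of 7 arrays ended the Saraf call (−0.65 to −0.43 over all arrays, limma adjusted p up to 0.0787). Homer3, a scaffold that ties receptors to the store, rose by 0.43 ± 0.125 on a dim probe set (from 4.85 to 5.29, limma adjusted p = 0.0144). At 60 days Fkbp1a, a protein bound to ryanodine receptors, rose by 0.84 ± 0.179 (limma adjusted p = 0.00195). A second Fkbp1a probe set rose too (0.76, limma adjusted p = 0.00442), and the third did not pass (0.06, limma adjusted p = 0.836). Fkbp1a did not pass without ShamC-60 replicates 1 and 4. Trdn rose by 0.35 and Pln, the SERCA inhibitor phospholamban, fell by 0.41 (limma adjusted p = 0.0439 and 0.0481), both dim and lost without any of 12 and 17 single arrays.

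The next list held phospholipase C enzymes, which make IP3, and other genes of IP3 metabolism. In it the phospholipase C gene Plcb4 fell at 21 days by 0.66 ± 0.156 (limma adjusted p = 0.00412). Inpp1, of IP3 metabolism, fell by 0.39 (limma adjusted p = 0.0164, lost without ShamC-21 replicate 1). The phospholipase C gene Plcb3 rose by 0.28 (limma adjusted p = 0.0299, lost without any of 7 arrays). The second probe sets of Plcb4 (0.01, limma adjusted p = 0.969) and Inpp1 (0.28, limma adjusted p = 0.0804) did not pass. At 60 days 0 of the 13 genes passed in limma, beside 20.1% of all genes, and the smallest adjusted p was 0.0936, for Plcb3.

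Of 6 exchangers and other pumps, Atp2c1, the calcium pump of the Golgi apparatus, fell at both days, by 0.84 ± 0.178 and 0.74 ± 0.188 (limma adjusted p = 0.00169 and 0.00728), without loss of either call in any single-array fit. Its second probe set gave −0.26 and −0.20 without a call (limma adjusted p = 0.16 and 0.339). The sodium/calcium exchanger Slc8a1 did not pass (−0.16 and 0.03, limma adjusted p = 0.215 and 0.845).

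Of 9 mitochondrial genes, Smdt1, an essential small subunit of the mitochondrial calcium uniporter, rose by 0.53 ± 0.116 at 21 days and 0.91 ± 0.122 at 60 days (limma adjusted p = 0.00215 and 1.25e-05). Both calls held in each of 11 other settings and without each single array. Letm1, a mitochondrial inner membrane protein linked to cation exchange, fell by 0.39 and 0.42 (limma adjusted p = 0.0158 and 0.0144). The lysosomal channel Mcoln1 rose by 0.39 and 0.37 (limma adjusted p = 0.0234 and 0.0439, lost without any of 2 and 8 single arrays).

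Among 12 cytosolic calcium-binding proteins 4 rose at 21 days and 2 at 60 days, 33.3% and 16.7% of the list, beside 22.6% and 20.1% of all genes that passed in either direction. With so few genes nothing is read from these shares. Ncs1, a neuronal calcium sensor, rose by 0.37 ± 0.0886 and 0.30 ± 0.0935 (limma adjusted p = 0.0044 and 0.0254). Its group means, 5.94 to 6.33, lay below the table median, and its 60-day call was lost without ShamC-60 replicate 2 or 4. Hpcal4, Necab1 and Ocm rose at 21 days by 0.32 to 0.37 on dim probe sets, and the last 2 were lost without any of 6 and 8 single arrays. Hpcal1, a hippocalcin-like sensor, rose at 60 days by 0.88 ± 0.179 (limma adjusted p = 0.00125), with a second probe set at −0.03 (limma adjusted p = 0.837). With Spi-21 replicates 1 to 4 left out, 21-day calls of these lists that were lost included Rcn2, Saraf, Homer3, Plcb4, Inpp1, Letm1 and Hpcal4. Plcb3, Necab1 and Ocm were lost there too. With Spi-21 replicates 5 to 8 left out, Mcoln1, Hpcal4 and Ocm lost their 21-day calls. Without ShamC-60 replicates 1 and 4, the 60-day calls of Rcn2, Trdn, Fkbp1a, Pln, Mcoln1 and Ncs1 were lost. With the GAPDH covariate, Rcn2, Trdn, Pln, Atp2c1, Letm1, Mcoln1 and Ncs1 were among those lost at 60 days. The buffers Pvalb, Calb1 and Calb2 did not pass on either day (limma adjusted p from 0.188 to 0.893).

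**Figure D4:**
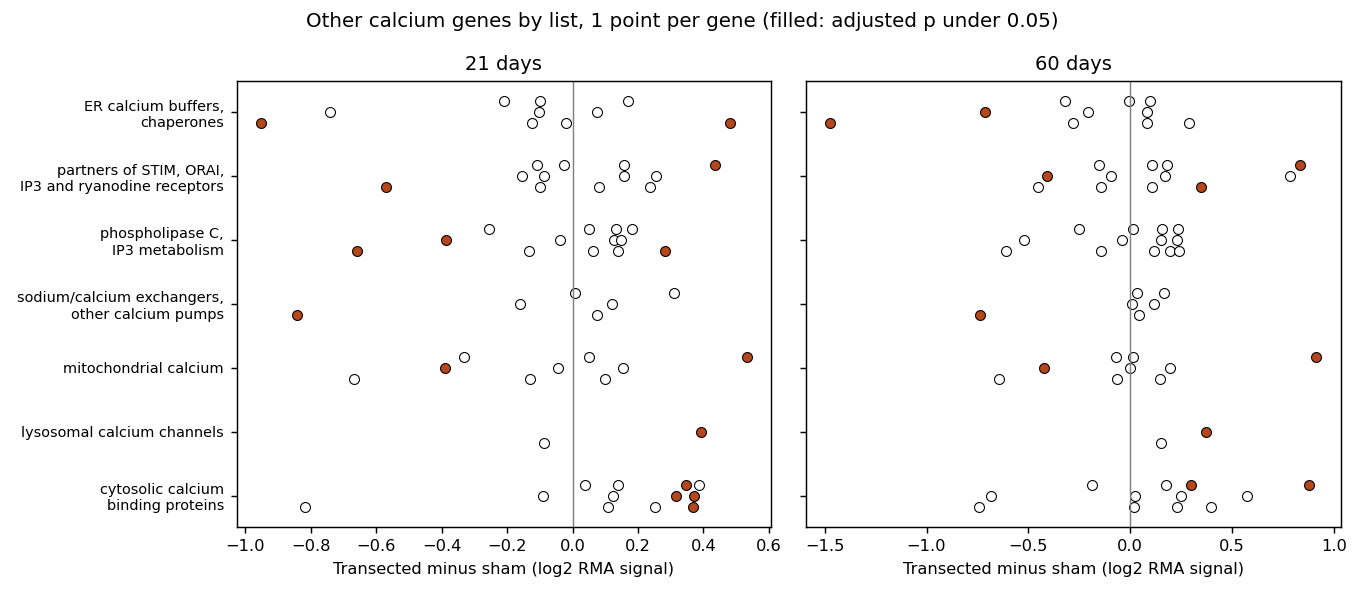
Transected minus sham difference in log2 RMA signal (x axis, with its own scale in each panel) for the genes of the 7 other calcium lists (y axis), 1 point per gene by its brightest probe set, at 21 days (left) and 60 days (right). Filled points passed an adjusted p of 0.05. Rcn1 lies farthest left at 60 days at −1.47 and Smdt1 farthest right at 0.91.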

How the data were processed

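The deposited table holds log2 signals per probe set, made by the authors with RMA (background correction, normalization between arrays, summary of probes) per the submitters' processing notes, which give no version. The 27 columns match the samples by name, with array medians of 6.31 to 6.41. Genes were named from the platform annotation. One fit in R 4.3.3 with limma 3.58.1 (lmFit, eBayes) held all 12913 probe sets and 4 groups without covariates, after removal of 6 control probe sets. Tests were two-sided. Array measures were compared by exact permutation. Arrays have no depth, so their number limits precision. Errors after ± are standard errors unless marked SD. The steps were tested on simulated data. The deviations of same-numbered arrays correlated at r from −0.309 to 0.331. No arrays of other numbers were set beside them, so this cannot tell whether the numbers pair the arrays. The main fit did not use the numbers as pairs. Members and lists were chosen with earlier results of these data known. The text names every member and, per other list, up to 4 passing genes with the smallest p, with a few others (Pln, Ocm and genes that did not pass) added after their values were seen. Plots used matplotlib 3.10.9 in Python 3.11.15.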

Additional observations from a re-analysis of the deposited data

Results flagged for a closer look

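Of 80 groups of values (20 probe sets in 4 groups), 3 held an array whose gap to its nearest neighbour was large for the range of its group by Dixon's criterion, where chance gives about 1 in 20. In ShamC-21 replicate 5, Atp2a3 1368477_at read 6.37 against 6.15 in the next array. In ShamC-60 replicate 4, Atp2b3 1371172_at read 6.23 against 5.71. In Spi-21 replicate 8, Stim1 1382121_at read 5.36 against 5.89.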

How the results depend on the processing

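Alternatives covered 11 settings beside the 27 fits without 1 array. Of 995 values of member probe sets, 43 changed their call, 23 by losing and 20 by gaining it, and none reversed while called.

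For 21 days, member probe sets that rose (2) numbered 0 with only the arrays of that day or with Spi-21 replicates 1 to 4 left out, and 1 with only probe sets above the median signal or with the glial covariate. Those that fell (2) numbered 1 with bright probe sets only, with the GAPDH covariate, or with Spi-21 replicates 5 to 8 left out. All calls (2917) numbered 1811 with bright probe sets only, 1335 with Spi-21 replicates 1 to 4 left out and 2436 with only the arrays of that day. They numbered 2975 with the glial covariate, 3957 with the GAPDH covariate, 3903 with Spi-21 replicates 5 to 8 left out and 3226 with the replicate block. At 60 days, members that rose (3) numbered 5 with array weights or the replicate block, where all calls (2463) numbered 2969 and 3073. Members that rose numbered 0 with the GAPDH covariate or without ShamC-60 replicates 1 and 4, where all calls numbered 869 and 797. For the mean of both days, members that rose (3) numbered 6 with Spi-21 replicates 5 to 8 left out, where all calls (5087) numbered 5736. Of those that fell (1), 2 did with the glial covariate, and 0 without ShamC-60 replicates 1 and 4 or Spi-21 replicates 5 to 8. All calls numbered 3207 with bright probe sets only. For 60 minus 21 days in transected arrays, members that rose (1) numbered 3 with Spi-21 replicates 1 to 4 left out and 0 with array weights, the trend prior, repeated quantile normalization, either covariate, or Spi-21 replicates 5 to 8 left out. All calls there (11) numbered 2 with weights or the glial covariate, 4 with the trend prior, 92 with the GAPDH covariate, 26 without ShamC-60 replicates 1 and 4, 52 with Spi-21 replicates 5 to 8 left out and 630 with replicates 1 to 4 left out. The latter subset also gave 161 calls for the difference of both days, Orai1 among them (0.60, limma adjusted p = 0.0485), and array weights gave 3. Array weights gave 2 for 60 minus 21 days in sham. Fewer probe sets or arrays entered some of these fits, and other causes were not tested.

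Without 1 array at a time, 0 to 2 members rose and 1 to 2 fell at 21 days, 2 to 3 rose and 0 to 1 fell at 60 days, 3 to 4 rose and 0 to 2 fell for the mean, and 0 to 2 rose between transected groups. All calls ran from 2040 to 3177, 1538 to 2760, 4514 to 5303 and 1 to 83.

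No detection call was used here, and calls of Atp2a3 1371165_a_at and Atp2b3 1371172_at rest on probe sets below the table median. Gene-level statements depend on which probe set stands for a gene: with any probe set counted, 3 of 13 genes passed at 21 days instead of 0. The share of all genes counted in that way was not computed. By the brightest probe set it was 22.6%.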
